A study of Mus musculus with 10 samples.

Results

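The miRNAs described here are those known for their abundance in white blood cells or for their induction in inflammation: miR-142, miR-150, miR-342, miR-223, miR-155, miR-146a and miR-146b. They were taken by name from the deposited table, with or without an arm suffix, and the 7 names gave 9 of its 285 rows, because both arms of miR-142 and of miR-342 were listed. Small RNA was sequenced from liver tissue of mice at 14 weeks of age, 5 Tsc1 mutants, named L-Tsc1KO in the labels, and 5 of their littermates as controls. The Cre line or promoter behind the knockout, the strain and the alleles of the littermates are named in none of the sources used here. Tsc1 encodes a subunit of the TSC complex, which restrains mTORC1 signalling, and the series' title links its loss to miRNAs of the imprinted Dlk1-Dio3 locus and to gluconeogenesis. The labels number the livers as replicates without naming the animals, so p-values measure the spread between these samples.

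A miRNA is cut from a hairpin transcript, loaded into an Argonaute protein and guides it to messenger RNAs that pair with its seed, bases 2 to 8 from the 5′ end. The 2 strands of a hairpin are its 5p and 3p arms, of which 1 usually accumulates more. Liver holds resident macrophages, natural killer and other lymphocytes and circulating granulocytes among its hepatocytes, and miRNAs of those cells enter a whole-liver library. In bulk tissue, fewer cells of a type and less RNA per cell cannot be told apart, and none of the 9 rows says from which cell its reads came.

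The mature sequences show which rows can be told apart by sequence, and are printed from RefSeq (GRCm38.p6) with the seed in capitals. Rows listed without an arm were read as the arm that the older nomenclature meant by that name, which is 5p for miR-146a, miR-146b, miR-150 and miR-155 and 3p for miR-223. Of the 9 rows, 8 had an entry, and the other is miR-150.
miR-142-5p: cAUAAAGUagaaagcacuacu
miR-142-3p: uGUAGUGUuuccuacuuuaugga
miR-342-3p: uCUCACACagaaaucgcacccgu
miR-342-5p: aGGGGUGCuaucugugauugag
miR-223: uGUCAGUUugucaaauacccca
miR-146a: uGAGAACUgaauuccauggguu
miR-146b: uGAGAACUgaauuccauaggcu
miR-155: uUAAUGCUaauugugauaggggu
The rows miR-146a and miR-146b share the seed GAGAACU and differ in 2 of 22 bases, G18A and U21C (miR-146a base first, positions from the 5′ end), so reads cut short or misread near the 3′ end could be assigned to either. No other row among the 241 of 285 with a RefSeq match carried the seed of any of these 8.

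The hairpins lie at separate places in the genome, by the GENCODE M21 annotation of GRCm38. Mir142 (chr11:87756864-87756927, plus strand) lies in an intron of its host transcript Mir142hg, and the annotation places Mir142b over it on the opposite strand. Whether reads of the opposite strand were counted apart is not given in the sources used here. Mir150 (chr7:45121757-45121821, plus strand) and Mir146, the hairpin of miR-146a (chr11:43374397-43374461, minus strand), overlap no other annotated gene. Mir342 (chr12:108658620-108658718, plus strand) lies in an intron of Evl, a cytoskeletal regulator, and Mir146b (chr19:46342762-46342870, plus strand) in an intron of Mfsd13a. Exons of the non-coding transcripts F630028O10Rik and Mir155hg hold Mir223 (chrX:96242817-96242926, plus strand) and Mir155 (chr16:84714140-84714204, plus strand).

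The libraries held between 6228497 and 12129069 miRNA reads, and levels are the normalised reads the authors deposited, in which 1 read was worth 0.711 to 1.68 depending on the library. The hepatocyte miRNA miR-122 made up 22.8% to 32.7% of them in Tsc1 mutants and 24.1% to 37.8% in controls. Earlier results of these data showed control replicate 1 and Tsc1 mutant replicate 1 to deviate alike from their genotypes, and control replicate 2 to hold high epithelial and muscle miRNAs. Fold changes of the leukocyte rows, their sums by role and most of the ratios are therefore also given without both replicates 1. Messenger RNA of Tsc1 was not analysed here, so the genotypes were not checked against the targeted gene.

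None of the 9 leukocyte rows passed the threshold between Tsc1 mutant and control liver, an adjusted p below 0.05 by limma on log2(normalised reads + 1) with Benjamini-Hochberg adjustment over all rows. Of all 285 miRNAs, 37, or 13.0%, passed, of which 31 (10.9%) were higher and 6 (2.11%) lower in Tsc1 mutants. At an unadjusted limma p below 0.05 there was 1 leukocyte row, miR-150, which was lower, and there were 64 rows of all miRNAs (22.5%), 23 of them lower (8.07%). Voom on whole reads called 0 leukocyte rows and also had 1 at an unadjusted p below 0.05. By limma that number was 0, miR-150 included, when levels were scaled to the total reads of the listed miRNAs. It was also 0 without Tsc1 mutant replicate 3, without control replicate 2 and without control replicate 5. It was 2 with array weights, without Tsc1 mutant replicate 5, and without both replicates 1 with or without control replicate 2. Without control replicate 1 it was 3, and under the remaining settings 1. The fold change was below 0 for 5 leukocyte rows and above 0 for 4, beside 164 below and 121 above for all 285 miRNAs. The median log2 fold change of the leukocyte rows was -0.21, beside -0.06 for all 285 miRNAs. Values of the genotypes overlapped in all 9 rows, whereas they did not overlap in 36 of the 285, or 12.6%.

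**Figure D1:**
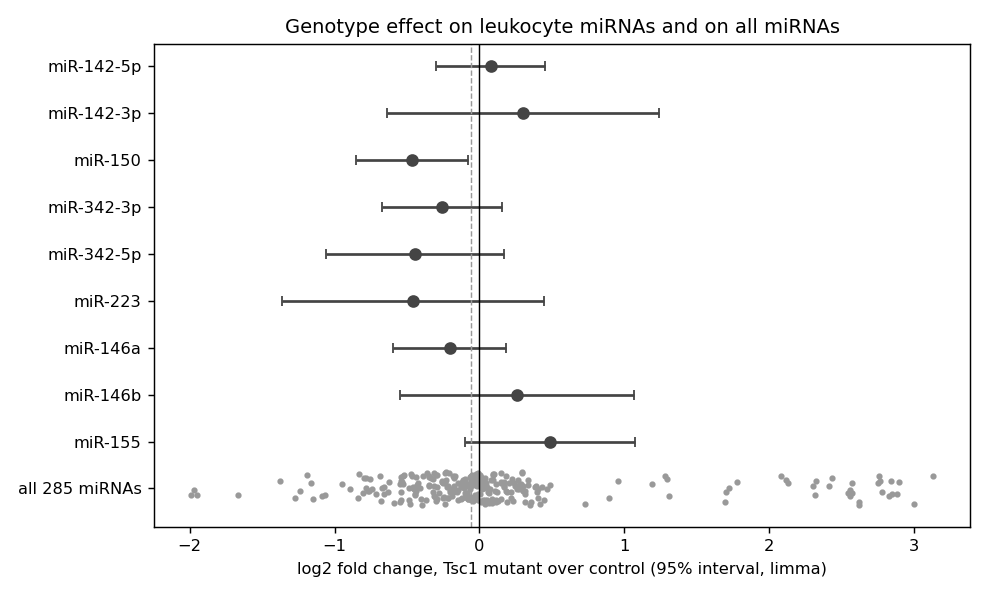
Log2 fold change of Tsc1 mutant over control for the 9 leukocyte rows (points, with limma 95% intervals) and for all 285 miRNAs (grey points in the bottom row, spread vertically at random; the dashed line is their median, -0.06). The interval of miR-150, from -0.85 to -0.08, is the one that leaves out 0, before adjustment over all miRNAs.

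Summed over the 9 rows, leukocyte miRNAs made up 0.232 ± 0.0352% of miRNA reads in Tsc1 mutants and 0.248 ± 0.0786% in controls (SD, n = 5 each). Most of these reads were miR-146a, which is also made outside leukocytes, with a mean of 14038 of 22238 normalised reads over the 10 libraries. Levels of the 9 rows ran from rank 41 of 285 for miR-146a to rank 266 for miR-155. By mean normalised reads the order was miR-146a, miR-142-5p, miR-146b, miR-342-3p, miR-142-3p, miR-223, miR-150, miR-342-5p and miR-155. Between 4 of the 8 pairs of neighbours in that order the ranges over the 10 libraries overlapped. These pairs were miR-342-3p and miR-142-3p, miR-142-3p and miR-223, miR-223 and miR-150, and miR-342-5p and miR-155. The order is one of sequenced reads, since how well each miRNA is captured was not measured.

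The hairpin of miR-142 is transcribed throughout the blood lineages, and its products are commonly read as a mark of leukocytes in general. Its dominant arm here, miR-142-5p, was at 4324, 5020, 4350, 6809 and 6295 normalised reads in Tsc1 mutants 1 to 5, against 5505, 5970, 4732, 5010 and 3977 in controls 1 to 5. The genotypes overlapped, with Tsc1 mutants 4 and 5 the highest of the 10 libraries and control replicate 5 the lowest. It averaged 5360 ± 1138 normalised reads in Tsc1 mutants and 5039 ± 759 in controls (SD, n = 5 each). The genotypes thus differed by 0.08 ± 0.17 (SE) on the log2 scale, where limma gave a 95% interval from -0.30 to 0.45 and an adjusted p of 0.892. A difference of 2-fold in either direction lies outside that interval. Without both replicates 1 the log2 fold change was 0.18, and without these and control replicate 2 it was 0.28.

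The other arm, miR-142-3p, was at 816, 331, 392, 353 and 402 normalised reads in Tsc1 mutants 1 to 5, against 1013, 335, 252, 182 and 341 in controls 1 to 5. The replicates 1 of both genotypes stood far above the other 8 libraries, while their miR-142-5p lay inside the range of the others. MiR-142-3p averaged 459 ± 202 normalised reads in Tsc1 mutants and 424 ± 336 in controls (SD, n = 5 each). Its log2 fold change of 0.30 ± 0.43 (SE) had a limma 95% interval from -0.64 to 1.24 and an adjusted p of 0.780. It was 0.07 without Tsc1 mutant replicate 1, 0.68 without control replicate 1 and 0.45 without both, and it was also low, at 0.06 and 0.18, without control replicate 4 and without control replicate 3. The limma adjusted p without both was 0.183, and ran from 0.103 to 0.982 over the 23 settings.

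The arms of this 1 hairpin therefore stood in unequal ratio across livers. The 5p arm exceeded the 3p arm by 5.30-, 15.2-, 11.1-, 19.3- and 15.7-fold in Tsc1 mutants 1 to 5, and by 5.43-, 17.8-, 18.8-, 27.6- and 11.7-fold in controls 1 to 5. The ratio in the replicates 1 was below that of every other library. The difference of the log2 ratio between genotypes was -0.22 ± 0.52 (SE), within the spread between libraries, and -0.27 without both replicates 1. It ran from -0.57 to 0.08 with single libraries left out. After removal of the genotype means, the log2 levels of the arms had a correlation of -0.05 over the 10 libraries, given as a description.

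All 3 rows of lymphocyte miRNAs, miR-150 and both arms of miR-342, had fold changes below 0, none past the threshold. Fold changes were below 0 in 164 of all 285 miRNAs. MiR-150, a miRNA of mature B, T and natural killer cells that restrains the transcription factor Myb, was at 109, 122.2, 96.7, 113 and 111 normalised reads in Tsc1 mutants 1 to 5. In controls 1 to 5 it was at 153, 195, 121, 136 and 168 normalised reads. Of the 5 mutants, 4 lay below every control, and Tsc1 mutant replicate 2 just exceeded control replicate 3. The mutants were also close to each other, with a coefficient of variation of 8.29%, against 18.5% in controls.

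MiR-150 averaged 111 ± 9.17 normalised reads in Tsc1 mutants and 155 ± 28.7 in controls (SD, n = 5 each). Fitted by limma, the log2 fold change of -0.47 ± 0.18 (SE) had a 95% interval from -0.85 to -0.08 and an unadjusted p of 0.0228, rank 50 of the 285. The limma adjusted p was 0.129, and it ran from 0.0854 to 0.2997 over 23 other settings, in all of which the fold change was below 0. Without both replicates 1 the log2 fold change was -0.46, and without these and control replicate 2, the highest control, it was -0.34.

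MiR-342 is made in lymphocytes and some other leukocytes from the intron of Evl. Its main arm, miR-342-3p, was at 375, 434, 345, 472 and 463 normalised reads in Tsc1 mutants 1 to 5, against 414, 612, 625, 510 and 370 in controls 1 to 5. Controls 2, 3 and 4 were above every mutant, and controls 1 and 5 were among the mutant values. It averaged 418 ± 55.6 normalised reads in Tsc1 mutants and 506 ± 114 in controls (SD, n = 5 each). The resulting log2 fold change, -0.26 ± 0.19 (SE), had a limma 95% interval from -0.67 to 0.16 and an adjusted p of 0.527. Without both replicates 1 it was -0.29.

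The arm miR-342-5p was near the floor of the table, with 9 to 41 reads per library. It was at 18.2, 16.1, 22.1, 12.9 and 32.8 normalised reads in Tsc1 mutants 1 to 5, against 19.2, 24.9, 35.3, 32.0 and 25.7 in controls 1 to 5. Tsc1 mutants 1, 2 and 4 were below every control, and Tsc1 mutant replicate 5 was higher than all controls but replicate 3. Its mean was 20.4 ± 7.66 normalised reads in Tsc1 mutants and 27.4 ± 6.34 in controls (SD, n = 5 each). With a log2 fold change of -0.44 ± 0.28 (SE), it had a limma 95% interval from -1.06 to 0.17 and an adjusted p of 0.428. Leaving out both replicates 1 gave -0.54.

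Mir342 is on chromosome 12, as is the Dlk1-Dio3 locus that the series names. The hairpin ends 0.882 megabases before the annotated start of Meg3, a non-coding transcript of that locus. Both arms of miR-342 had fold changes below 0 under each of the alternatives in which they were tested. Summed over the 3 lymphoid rows, the level was 549 ± 62.7 normalised reads in Tsc1 mutants and 688 ± 117 in controls (SD, n = 5 each). The log2 difference of the sum was -0.32 ± 0.13 (SE), or -0.34 without both replicates 1. Most of the sum was miR-342-3p, with a mean of 462 of 618 normalised reads over the 10 libraries. As a sum over rows chosen with earlier results known, the lymphoid level carries no test.

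**Figure D2:**
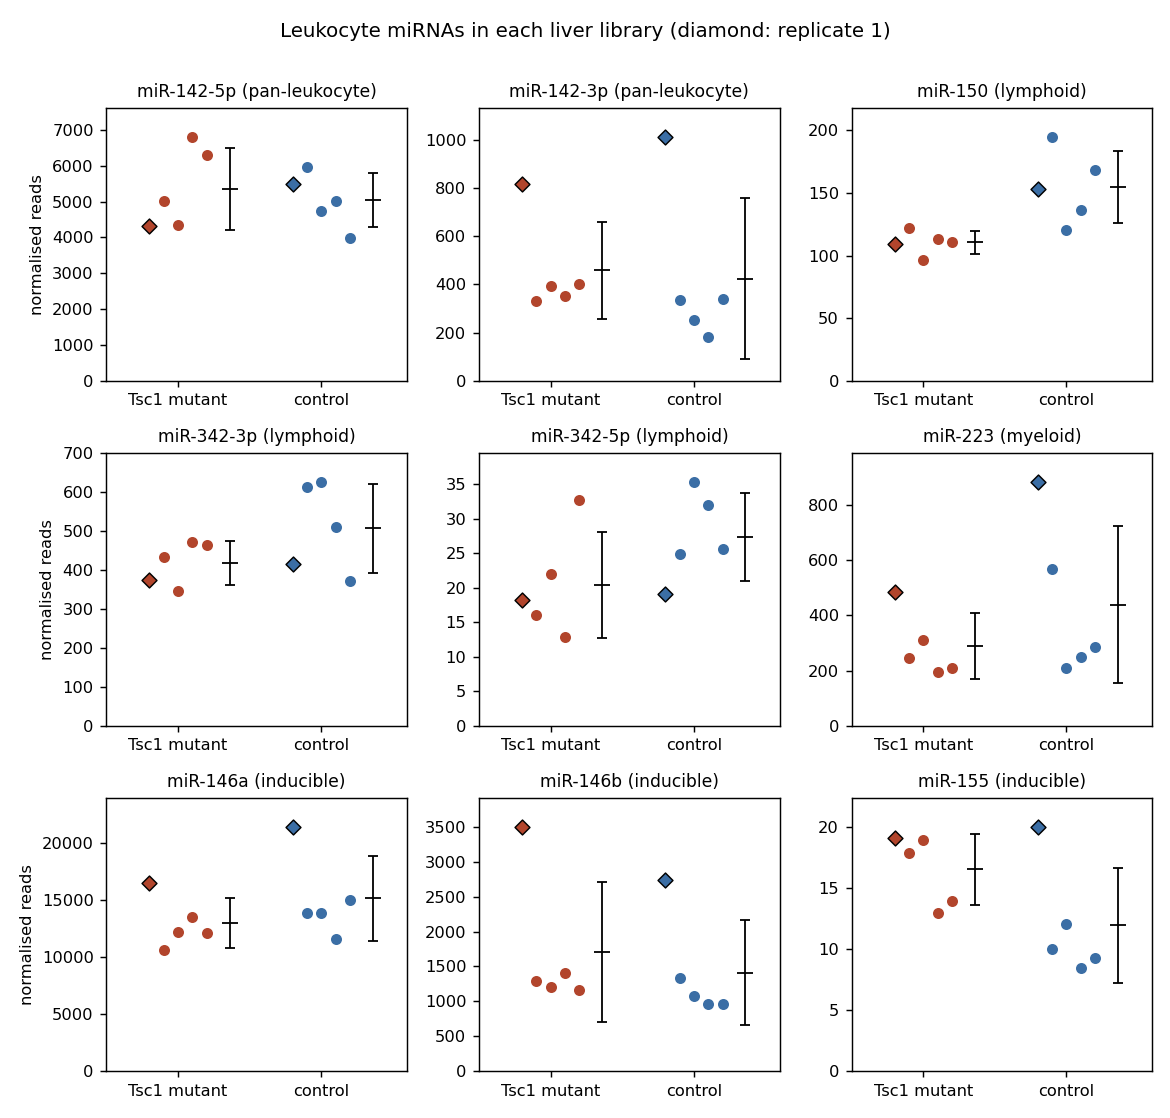
Normalised reads of each leukocyte row in the 5 Tsc1 mutant (red) and 5 control (blue) livers, replicates 1 to 5 from left to right, with diamonds for the replicates 1 and the mean ± SD as a bar. The replicates 1 are the highest of their genotype for miR-142-3p, miR-223, miR-146a, miR-146b and miR-155, and 4 of 5 mutants lie below every control for miR-150.

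MiR-223, the granulocyte and macrophage miRNA known to restrain Nlrp3 and granulocyte production, varied most within genotypes on the log2 scale beside miR-142-3p and miR-146b. It was at 485, 245, 310, 194 and 210 normalised reads in Tsc1 mutants 1 to 5, against 882, 568, 209, 249 and 286 in controls 1 to 5. Controls 1 and 2 were the highest of the 10 libraries, and the other 3 controls lay inside the mutant range. The mean was 289 ± 118 normalised reads in Tsc1 mutants and 439 ± 285 in controls (SD, n = 5 each).

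For miR-223, limma put the log2 difference at -0.46 ± 0.41 (SE) and its 95% interval from -1.37 to 0.44 and an adjusted p of 0.608. Its size moved with single libraries. It was -0.67 without Tsc1 mutant replicate 1 or without control replicate 3, -0.15 without control replicate 1, -0.36 without both replicates 1, and -0.06 without these and control replicate 2. A 2-fold lower level is inside the interval with all libraries, so these data do not limit a difference of that size.

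Among the inducible miRNAs, miR-146a was by far the most abundant. NF-κB induces it, and it damps the same pathway through the adaptors Traf6 and Irak1. It is also made outside leukocytes. It was at 16447, 10627, 12184, 13477 and 12072 normalised reads in Tsc1 mutants 1 to 5, against 21338, 13835, 13870, 11549 and 14985 in controls 1 to 5. The replicates 1 were the highest of each genotype, and the other libraries overlapped. It averaged 12961 ± 2194 normalised reads in Tsc1 mutants and 15115 ± 3696 in controls (SD, n = 5 each).

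On the log2 scale miR-146a differed by -0.21 ± 0.18 (SE), with 95% limits by limma of -0.60 and 0.18 and an adjusted p of 0.590. It was -0.16 without both replicates 1 and -0.07 without control replicate 1 alone. Across 23 other settings it stayed between -0.30 and -0.07 and its limma adjusted p between 0.264 and 0.800.

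MiR-146b, which shares the miR-146a seed but has its own gene, was at 3500, 1288, 1204, 1402 and 1166 normalised reads in Tsc1 mutants 1 to 5. In controls 1 to 5 it was at 2737, 1332, 1075, 961 and 955 normalised reads. The replicates 1 stood apart in both genotypes, and each mutant was above the control median. MiR-146b averaged 1712 ± 1004 normalised reads in Tsc1 mutants and 1412 ± 756 in controls (SD, n = 5 each). Mutant over control this was a log2 difference of 0.26 ± 0.37 (SE), with a limma 95% interval from -0.55 to 1.07 and an adjusted p of 0.780. It was -0.03 without Tsc1 mutant replicate 1, 0.53 without control replicate 1 and 0.24 without both. Its sign changed under 1 of the 23 other settings, the one without Tsc1 mutant replicate 1. Over these settings its limma adjusted p ran from 0.0843, without both replicates 1 and control replicate 2, to 0.958.

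MiR-146a exceeded miR-146b by 4.70-, 8.25-, 10.1-, 9.61- and 10.4-fold in Tsc1 mutants 1 to 5, and by 7.80-, 10.4-, 12.9-, 12.0- and 15.7-fold in controls 1 to 5. In each genotype the replicate 1 had the lowest ratio. The log2 ratio was lower in Tsc1 mutants by a difference of -0.47 ± 0.27 (SE), or of -0.40 without both replicates 1, and the genotypes overlapped. Their near-identical sequences leave the split of reads between the 2 rows uncertain.

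MiR-155, which activated macrophages and lymphocytes make from the Mir155hg transcript and which restrains Socs1, was the least abundant leukocyte row. It was at 19.1, 17.8, 18.9, 12.9 and 13.9 normalised reads in Tsc1 mutants 1 to 5, against 19.98, 9.95, 12.1, 8.41 and 9.24 in controls 1 to 5. Controls 2 to 5 lay below every mutant, and control replicate 1 above all of them. These values rest on 9 to 22 reads in mutants and 5 to 25 in controls. The 9 reads of Tsc1 mutant replicate 4 have an exact Poisson 95% interval from 5.90 to 24.5 normalised reads, and the 14 of control replicate 3 one from 6.60 to 20.3, which covers counting error alone.

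MiR-155 averaged 16.5 ± 2.92 normalised reads in Tsc1 mutants and 11.9 ± 4.70 in controls (SD, n = 5 each). Its fold change on the log2 scale was 0.49 ± 0.27 (SE), with a limma 95% interval from -0.10 to 1.07 and an adjusted p of 0.338. Without control replicate 1 it was 0.68, with a limma adjusted p of 0.0724, the lowest of any leukocyte row under the settings tried. Without both replicates 1 it was 0.62 (limma adjusted p = 0.115), and over the 22 settings that tested it the adjusted p ran up to 0.514. Its fold change was above 0 under all of these.

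Compared as groups, the lymphoid, myeloid and inducible rows were first summed over each role. Single rows of different roles were then set against each other within each library, whereas the sums were not set in ratio. The summed inducible rows, mostly miR-146a, were at 14690 ± 3130 normalised reads in Tsc1 mutants and 16539 ± 4415 in controls, and the summed arms of miR-142 at 5819 ± 1050 in Tsc1 mutants and 5463 ± 927 in controls (SD, n = 5 each). Both differences were within the spread between libraries, at -0.16 ± 0.20 and 0.09 ± 0.16 (SE) on the log2 scale. The inducible difference was -0.28 without Tsc1 mutant replicate 1, -0.01 without control replicate 1 and -0.13 without both. The miR-142 difference was 0.0087 without control replicate 5, 0.0098 without Tsc1 mutant replicate 4, 0.16 without either control replicate 1 or Tsc1 mutant replicate 3, 0.20 without both replicates 1 and 0.29 without these and control replicate 2. In ratios within a library, the scaling cancels. A ratio of the myeloid row to a lymphoid row, miR-223 over miR-150, was 2.65 ± 1.16 in Tsc1 mutants and 2.78 ± 1.73 in controls (SD, n = 5 each). Its log2 difference was 0.01 ± 0.43 (SE). It was 0.10 without both replicates 1 and 0.29 without these and control replicate 2. The ratio was 4.43 and 5.75 in Tsc1 mutant and control replicates 1, and between 1.70 and 3.21 in the other 8 libraries.

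A ratio of an inducible to a lymphoid row, miR-155 over miR-150, was 0.175, 0.146, 0.196, 0.114 and 0.125 in Tsc1 mutants 1 to 5. In controls 1 to 5 it was 0.130, 0.0511, 0.10, 0.0617 and 0.0549. Controls 2 to 5 were below every mutant, and control replicate 1 was among the mutants. The log2 difference was 1.00 ± 0.30 (SE), the largest of the 8 ratios computed, and 1.14 without both replicates 1. The ratio rests on 5 to 25 reads of miR-155 per library, on average 14.2 of the 15614 normalised reads of the inducible sum. For miR-155 over miR-142-5p the log2 difference was 0.45 ± 0.33 (SE), and the genotypes overlapped. The ratio of miR-150 to miR-142-3p was not computed, and the arms of miR-142 had a correlation of -0.05, so the ratio to miR-142-5p holds for that arm alone. Relative to miR-142-5p, miR-150 was at 0.0253, 0.0243, 0.0222, 0.0166 and 0.0177 in Tsc1 mutants 1 to 5. In controls 1 to 5 it was at 0.0279, 0.0326, 0.0255, 0.0272 and 0.0423. Every mutant was below every control, and the genotypes did not overlap in 1 of the 8 ratios. The 36 of 285 (12.6%) that did not overlap are single rows, and the share among ratios of other rows was not computed. The margin was narrow, between Tsc1 mutant replicate 1 and control replicate 3, which had 126 and 140 reads of miR-150. The log2 difference of miR-150 over miR-142-5p was -0.55 ± 0.18 (SE), or -0.65 without both replicates 1. That of the myeloid row, miR-223 over miR-142-5p, was of like size with a wider spread, at -0.54 ± 0.49 (SE), and the genotypes overlapped. With single libraries left out, the miR-223 value ran from -0.82 to -0.27. These ratios reuse the same few rows, were looked at with earlier results known, and carry no test.

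**Figure D3:**
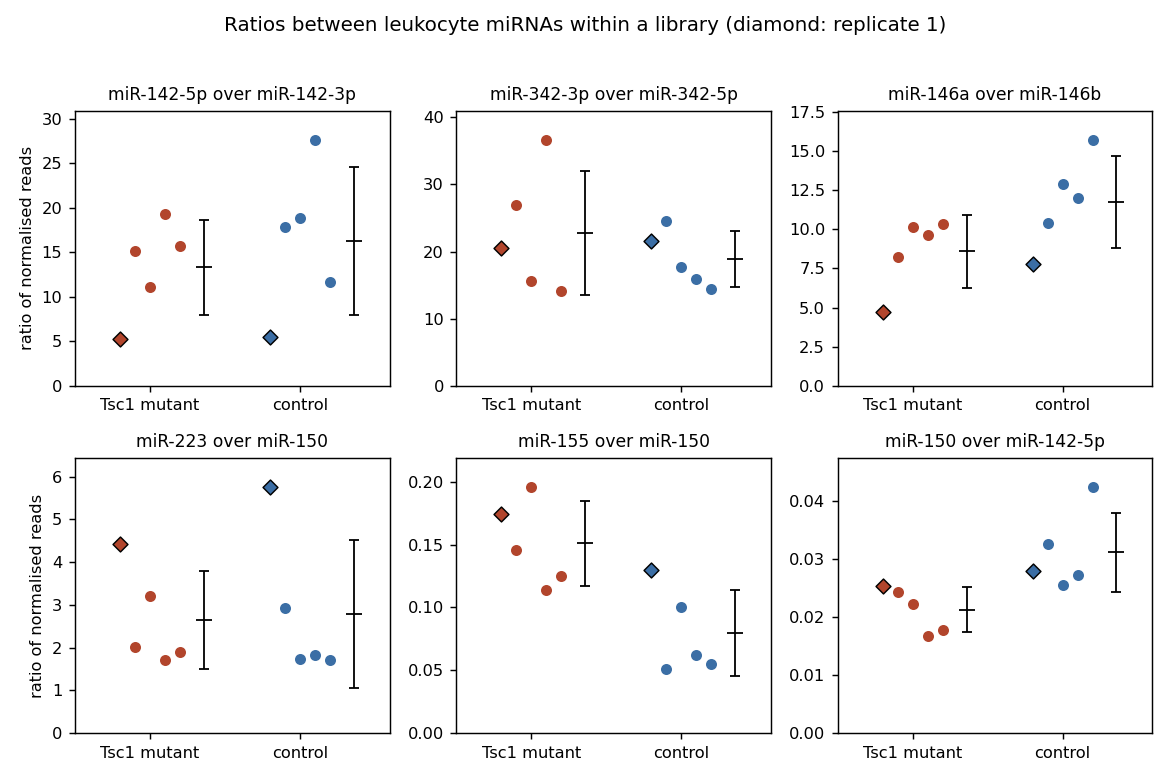
Ratios of normalised reads within each library for 6 of the 8 pairs computed, in Tsc1 mutant (red) and control (blue) livers, replicates 1 to 5 from left to right, with diamonds for the replicates 1 and the mean ± SD as a bar. The arm ratio of miR-142 is near 5 in both replicates 1, and miR-150 over miR-142-5p is at most 0.0253 in mutants and at least 0.0255 in controls.

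Within genotypes the leukocyte rows did not move as 1 block. The replicates 1 were the highest library of both genotypes for 5 of the 9 rows, miR-142-3p, miR-223, miR-146a, miR-146b and miR-155, beside 73 of all 285 miRNAs (25.6%). Against the median of the other 4 of its genotype, miR-146b was higher by 1.49 in Tsc1 mutant replicate 1 and by 1.43 in control replicate 1 on the log2 scale, and miR-223 by 1.09 and 1.72. In the same 2 libraries miR-150 deviated by -0.04 and 0.02, and miR-342-3p by -0.26 and -0.43. Over all 10 libraries miR-146a had a correlation of 0.95 with miR-142-3p and of 0.07 with miR-150 after removal of the genotype means, a description that rests on 2 libraries in part, since without both replicates 1 the values were 0.72 and 0.16.

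**Figure D4:**
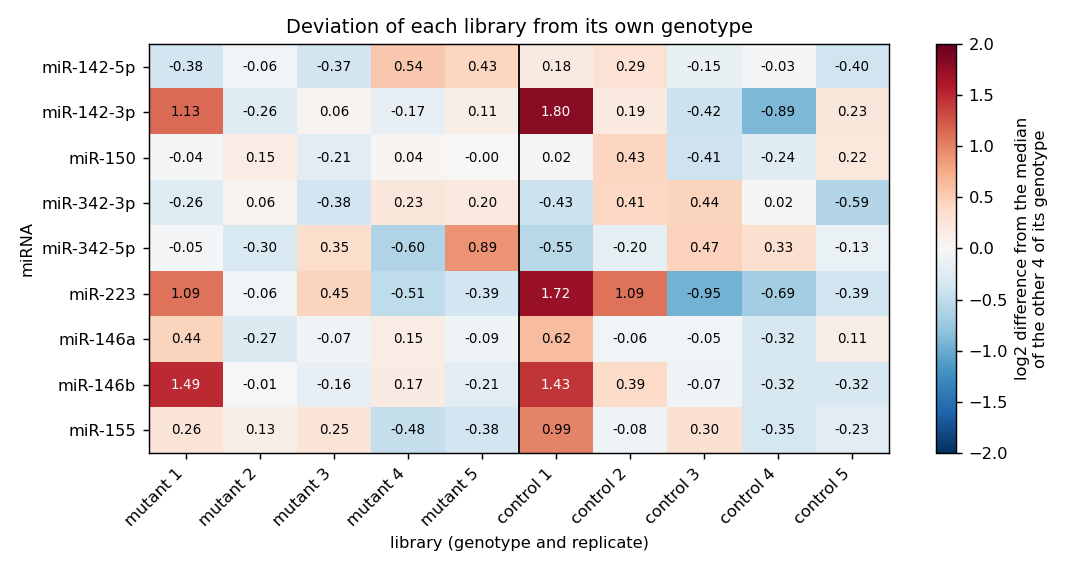
Deviation of each library from the median of the other 4 of its genotype, on the log2 scale, for the 9 leukocyte rows, with the Tsc1 mutants left of the black line and the controls right of it. Both replicates 1 are high for miR-142-3p, miR-223 and miR-146b, and near 0 for miR-150.

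Of the miRNAs outside the leukocyte rows, those most like miR-146a over the 10 libraries with the genotype means removed were miR-29b (Pearson r 0.94, Spearman rho 0.73), the erythroid miR-451 (0.92, 0.75), miR-140 (0.92, 0.92), miR-450a (0.92, 0.95) and miR-18a (0.91, 0.82). They were picked as the highest of 276, share the libraries and their scaling, and without both replicates 1 have r between 0.62 and 0.95. For miR-223 the closest was miR-34c at 0.92, for miR-142-5p miR-3969 at 0.79 and for miR-342-3p miR-484 at 0.76. The next 4 had r between 0.87 and 0.89 for miR-223, between 0.68 and 0.77 for miR-142-5p, and between 0.73 and 0.75 for miR-342-3p. Without both replicates 1, r was 0.85 for miR-34c and between 0.55 and 0.77 for the other 4 of miR-223, between 0.72 and 0.89 for the 5 of miR-142-5p, and between 0.66 and 0.78 for the 5 of miR-342-3p.

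Markers of other cells were summed per library beside these rows. The 3 erythroid miRNAs gave 3431 to 6533 normalised reads in Tsc1 mutants and 3886 to 5924 in controls, and none of them passed the threshold, with miR-486 at a log2 fold change of 0.11. Retained blood in the tissue was not tested beyond these values. The 2 endothelial arms of miR-126 gave 114892 to 160253 normalised reads in Tsc1 mutants and 113035 to 160119 in controls, lowest in the replicates 1. The median of the 5 hepatocyte miRNAs was at a log2 fold change of -0.01, and 1 of them, miR-802, rose, while miR-122 was at -0.21. The 5 stellate and smooth muscle rows gave 131317 to 243057 normalised reads in Tsc1 mutants and 164279 to 363788 in controls, led by miR-143 at a log2 fold change of -0.39. The 5 biliary epithelial rows, led by miR-200b at -0.68, gave 3126 to 7014 normalised reads in Tsc1 mutants and 4996 to 35789 in controls. The 3 striated muscle rows, led by miR-1a at -1.27, gave 151 to 919 in Tsc1 mutants and 268 to 5638 in controls. Both were highest in control replicate 2, which was also high for miR-150 and miR-223. Their part in the leukocyte values was not tested.

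Other miRNAs linked to inflammation or to blood cell development were counted beside the 13.0% called over all miRNAs. Of 11 rows for other miRNAs induced in inflammation, such as miR-132, miR-221, miR-222 and miR-34a, 0 passed the threshold in either direction. Their median log2 fold change was -0.12, and the most abundant, miR-21, was at -0.12 ± 0.31 (SE). Of 16 rows for miRNAs of blood cell development, such as the miR-181 members, miR-24 and miR-125a, 1 rose, the most abundant one, miR-29a, at 0.34 ± 0.10 (SE) and an adjusted p by limma of 0.0395. The median of that list was -0.07, beside -0.06 for all miRNAs.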

How the data were processed

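The authors deposited 1 table of normalised read signal per miRNA. DESeq is the tool listed, with no version, per the submitters' processing notes. The sources used here name no aligner, annotation, build or filter. Every value was a whole multiple of 1 step per library within 0.001, between 0.711 and 1.68 normalised reads per read, which gave the depth. Counting intervals cover counting error only.

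The 10 columns were matched to samples by library number. Values were compared as log2(normalised value + 1) by limma 3.58.1 in R 4.3.3 with an intensity trend, adjusted by Benjamini-Hochberg over all 285 miRNAs at a threshold of 0.05. Such fold changes understate changes of low miRNAs. A mean of at least 5 normalised reads was required, which all 285 met, the 9 leukocyte rows included. The fit was tested on simulated libraries. Rows, lists and alternatives were chosen with earlier results of these data known. All rows the names find are described, with the 5 miRNAs most like miR-146a, the closest of 3 others, and the most abundant and any called row of each list. No 2 libraries were identical, and 0 of 45 pairs agreed within sampling noise. Alternatives were other pseudocounts, filters and scalings (TMM factors computed directly), array weights, no intensity trend, the replicate block, libraries left out, and voom. Figures used matplotlib 3.10.9.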

Additional observations from a re-analysis of the deposited data

Results flagged for a closer look

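Each row, ratio and sum was looked at within each genotype for a library far from its 4 companions. Of 62 such sets of 5 libraries, 7 had one, and about 3.1 would by chance, although ratios and sums reuse the same rows. The values were taken unlogged, and the number by chance holds for normally distributed values, which was not checked.

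Among the leukocyte rows these were the replicates 1. MiR-142-3p was at 816 normalised reads in Tsc1 mutant replicate 1, with 402 in the next mutant, and at 1013 in control replicate 1, with 341 in the next control. MiR-146b was at 3500 normalised reads in Tsc1 mutant replicate 1, with 1402 in the next mutant, and at 2737 in control replicate 1, with 1332 in the next control. In both libraries miR-142-5p, from the same hairpin as miR-142-3p, did not stand apart.

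Among the lists of other cells, the endothelial sum was lowest in control replicate 1, at 113035 normalised reads. The biliary epithelial sum was highest in control replicate 2, at 35789, and so was the striated muscle sum, at 5638.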

How the results depend on the processing

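Under 23 other settings, 0 leukocyte rows passed the threshold in any. Of 205 fold changes of single rows under these settings, 202 kept their sign. The exceptions were miR-146b without Tsc1 mutant replicate 1, at -0.034, and miR-142-5p without Tsc1 mutant replicate 4, at -0.016, and without control replicate 5, at -0.0048. With single libraries left out, miR-146b ranged from -0.034 to 0.53 and miR-142-5p from -0.016 to 0.15 on the log2 scale. Without both replicates 1 and control replicate 2, miR-142-5p was at 0.28. MiR-155 and miR-342-5p were not tested where a mean of at least 100 normalised reads was required. The 60 recomputed sums by role moved by less than the SD between libraries. Leaving out a single library can hardly move a mean by that much, so this does not show the sums to be stable.

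Over all miRNAs, 31 were higher and 6 lower. At a mean of at least 100 normalised reads 19 were higher and 3 lower. The number lower was 23 with array weights, 11 without both replicates 1 and 13 without these and control replicate 2. Leaving out single libraries gave 28 to 34 higher and 2 to 10 lower. It was 2 without Tsc1 mutant replicate 4, 10 without control replicate 1, and 3 without control replicate 3 or 5. The cause was not tested. With the replicate block 10 were lower, and 35 higher, and 0 leukocyte rows passed. Same-numbered libraries had correlations of their deviations between -0.02 and 0.81, and 2 of the 5 pairs correlated best with their own number, so the numbers were not taken as pairs. Voom on whole reads, chosen after seeing the data, gave 31 higher and 6 lower, and the ratios with libraries left out were added likewise. Depth limits miR-155 and miR-342-5p, at 5 to 41 reads per library.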
